A study of Mus musculus with 9 samples.

Results

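The 10 genes described here carry out fatty acid uptake and lipoprotein lipase action: Fabp4, Fabp5, Cd36, Slc27a1, Slc27a4, Lpl, Gpihbp1, Lmf1, Angptl4 and Vldlr. They were chosen by gene symbol in the array's probe annotation, which named 19057 genes in all, and were measured by 20 of the 45281 probes. Fabp4, Cd36, Slc27a1 and Slc27a4 had 1 probe each, and the other genes had several. RNA came from the epididymal fat, a visceral fat pad beside the epididymis, of FVB/N mice aged 3 months and fasted for 14 to 16 h beforehand. Of the mice, 5 were labelled tg/tg and were transgenic for Tm5NM1 (a tropomyosin of the actin cytoskeleton), and 4 were labelled wt/wt and carried no transgene per the series' design. The sources used here do not give the transgene's promoter or the number of founder lines. Each mouse had its own Illumina bead array.

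Adipocytes take up fatty acids that lipoprotein lipase frees from circulating triglyceride. The enzyme is made in the adipocyte, folded in the endoplasmic reticulum with the help of Lmf1, carried across the capillary wall by Gpihbp1 and inactivated by Angptl4, which rises in fat on fasting. Cd36 and the Slc27 proteins move fatty acids into the cell, the Fabp proteins bind them in the cytosol, and Vldlr binds triglyceride-rich lipoproteins at the cell surface.

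None of the 10 genes passed the test between genotypes. Fabp4 had the largest difference, 2.41-fold higher in transgenic fat at its single probe, but the 3 low values behind it were those of the 3 wild-type arrays with the lowest overall signal. Slc27a1 was 1.40-fold lower in transgenic fat with the same 3 wild-type mice apart from the rest, and the other 8 genes differed by no more than 1.32-fold at their brightest probe. A further pattern among mice did not follow genotype: transgenic mouse 152 had the lowest value of its group for 8 of the 10 genes. The share over all kept probes was 37.2%.

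Values below are background-corrected and quantile-normalized log2 intensities. They are listed in the order 165, 152, 147, 163 and 164 for the transgenic mice, and 141, 142, 143 and 159 for the wild-type mice. Differences are transgenic minus wild type, so a positive difference means higher in transgenic fat, and a level at one probe is not comparable with a level at another. A probe was tested when its detection p was under 0.05 on at least 4 arrays, which kept 23354 probes. All 17 member probes that passed this filter were detected on all 9 arrays, and 1 further probe each of Fabp5, Lmf1 and Vldlr was detected on 0 arrays and not tested. In whole tissue, fewer cells of a type and less RNA per cell cannot be told apart.

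The arrays differed in signal. Median deposited intensity was 142 to 147 on the arrays of wild-type mice 142, 143 and 159, and 169 to 192 on the other 6. Those 6 were the arrays of wild-type mouse 141 and all 5 transgenic mice. The lower 3 are called the dimmer arrays below, a set defined from the data after they were seen, and the sources used here do not say whether it reflects a slide, a scan or the tissue. Because the set holds wild-type mice alone, array set and genotype largely cannot be told apart. Of the 9 adipocyte markers, 8 were measured, and all 8 were detected on all 9 arrays. The brightest probe of Tpm3, the gene that encodes Tm5NM1, averaged 13.39 ± 0.27 (SD, n = 5) in the transgenic mice and 12.85 ± 0.34 (SD, n = 4) in the wild-type mice (limma adjusted p = 0.452). The sources used here do not say whether that probe lies in sequence carried by the transgene.

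The limma fit over all kept probes called 16, or 0.0685%, at an adjusted p of 0.05, all of them lower in transgenic fat, and 0 of the 10 genes was among them. An unadjusted p under 0.05 was reached by 2206 probes, or 9.45%, and by 2 of the 10 genes, Fabp4 and Slc27a1. The groups did not overlap at 749 probes, or 3.21%, and overlapped for all 10 genes. Of the 10, 8 were higher and 2 lower in transgenic fat, with a median difference of 0.12, while 57.5% of all kept probes were higher, with a median of 0.05. The 5th to 95th percentile of all kept probes spanned -0.52 to 0.51, and the differences of all genes here but Fabp4 lay within that span.

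**Figure D1:**
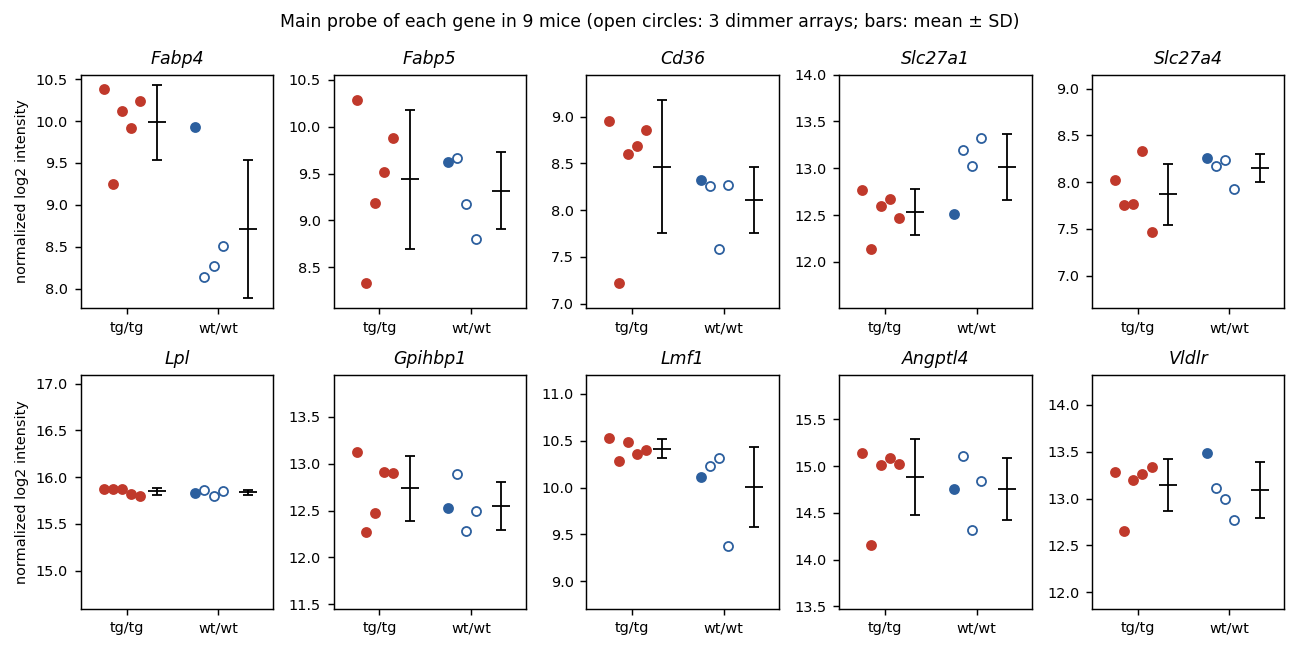
Normalized log2 intensity of the brightest probe of each gene (vertical axes, which differ in position) in 5 tg/tg and 4 wt/wt mice, 1 point per mouse, with the group mean ± SD beside the points and open circles for the 3 dimmer arrays. The 3 open circles lie below all other points for Fabp4 (8.14 to 8.51 against 9.25 to 10.39) and above all others for Slc27a1, and Lpl spans 0.08 over all 9 mice.

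Fabp4, the main fatty acid binding protein of the adipocyte cytosol, read 10.39, 9.25, 10.13, 9.92 and 10.24 in the transgenic mice. In the wild-type mice it read 9.93, 8.14, 8.27 and 8.51. Wild-type mouse 141 thus lay inside the transgenic range, and the groups overlapped through that mouse and transgenic mouse 152. The means were 9.98 ± 0.45 (SD, n = 5) and 8.71 ± 0.82 (SD, n = 4), a difference of 1.27 with a 95% confidence interval of 0.44 to 2.10 (limma adjusted p = 0.369). Of all kept probes, 1.51% differed by as much or more in either direction. The Fabp4 probe stood at only 0.51% to 2.23% of the brightest probe on each array, with no further probe of the gene to compare.

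The split of Fabp4 was visible before any normalization, but not for Fabp4 alone. With no normalization between arrays the dimmer arrays also lay apart from the other 6 for Lpl, Lmf1 and Vldlr. The median gap of all kept probes was then -0.53 (dimmer minus the other 6). The deposited intensities of Fabp4 were 329 to 387 on the 3 dimmer arrays, 1169 in wild-type mouse 141 and 910 to 1561 in the transgenic mice. After normalization its mean was lower by 1.67 log2 units on the dimmer arrays (-1.67, dimmer minus the other 6), a gap that 0.754% of kept probes equalled or exceeded. With the dimmer arrays as a term beside genotype, the genotype difference was 0.05 with an interval of -0.82 to 0.92. That estimate compares wild-type mouse 141 alone with the 5 transgenic mice.

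Leaving out wild-type mouse 141 separated the groups fully for Fabp4 and Slc27a1, as it did for 1346 probes, or 5.76%. The Fabp4 difference was then 1.67 (limma adjusted p = 0.132). Without transgenic mouse 152 it was 1.45 (adjusted p = 0.112). With no normalization between arrays the median of all kept probes was itself 0.43 higher in transgenic fat. The Fabp4 difference was then 1.69 (adjusted p = 0.0468), and 1332 probes, or 5.7%, passed the test. In that setting the groups did not overlap at 3761 probes, or 16.1%, and at 1 of the 10 genes, Lmf1. Fabp4 was the only one of the 10 genes past the threshold under any alternative tried, and that setting was the only one that took it there.

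Fabp5, a fatty acid binding protein of adipocytes and macrophages, read 10.29, 8.33, 9.19, 9.51 and 9.88 in the transgenic mice. Its wild-type values were 9.62, 9.67, 9.17 and 8.80. The transgenic mice held both the highest value (mouse 165) and the lowest (mouse 152), and the wild-type values lay between them. The difference was 0.12 with an interval of -0.69 to 0.93 (limma adjusted p = 0.94). It turned to -0.09 without mouse 165. Unlike at Fabp4, the dimmer arrays overlapped the other 6.

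Cd36, the membrane fatty acid translocase, read 8.96, 7.23, 8.60, 8.68 and 8.86 in the transgenic mice. It read 8.32, 8.26, 7.58 and 8.26 in the wild-type mice. The probe, the only one of the gene, stood at just 0.39% to 0.93% of the brightest probe on each array. In each group 1 mouse stood well below the rest, transgenic mouse 152 and wild-type mouse 143. The difference was 0.36 with an interval of -0.40 to 1.12 (limma adjusted p = 0.778). Without mouse 152 it was 0.67 (adjusted p = 0.145), and the groups no longer overlapped for Cd36 or for Lmf1, as for 2517 probes, or 10.8%.

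Sequence upstream of Cd36 is shown because Cd36 was in the pair with the highest Pearson r among the genes (with Angptl4, below). RefSeq promoter windows on GRCm38.p6 were matched for 5 of the genes (Cd36, Slc27a1, Slc27a4, Lmf1 and Vldlr), with 8 windows of 300 bases in all. Each was searched on both strands for CCAAT, for TATAAA and for AGGTCA, the half-site bound by PPAR and retinoid X receptors. The Cd36 window, chr5:17835847-17836146 on the minus strand, held 1 match to CCAAT and 1 to AGGTCA, which reads TGACCT on the strand printed, and the capitals mark both.
Cd36: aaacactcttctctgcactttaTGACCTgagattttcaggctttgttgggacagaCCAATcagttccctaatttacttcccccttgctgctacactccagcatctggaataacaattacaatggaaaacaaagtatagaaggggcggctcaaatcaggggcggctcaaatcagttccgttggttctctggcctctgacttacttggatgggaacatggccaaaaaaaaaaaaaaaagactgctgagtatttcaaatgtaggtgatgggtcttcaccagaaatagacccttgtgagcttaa

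Of the 8 windows, CCAAT was in 4, AGGTCA in 1 and TATAAA in 0. Over all 32851 windows of that length the shares were 37.4% for CCAAT, 16.3% for AGGTCA and 13.6% for TATAAA. The motifs do not overlap each other in the Cd36 window, and a match is a description of letters only.

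Slc27a1 (FATP1), a fatty acid transport protein of fat and muscle that also activates fatty acids to acyl-CoA, read 12.77, 12.13, 12.60, 12.67 and 12.47 in the transgenic mice. Its wild-type values were 12.51, 13.19, 13.02 and 13.32. Here too mouse 141 lay among the transgenic mice, while the 3 dimmer arrays lay above all other mice. The difference was -0.49 with an interval of -0.92 to -0.05 (limma adjusted p = 0.496). With the dimmer arrays as a term it was 0.02.

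The 3 dimmer arrays did not overlap the other 6 at 804 kept probes, or 3.44%, and at 2 of the 10 genes, Fabp4 and Slc27a1, in opposite directions. The Slc27a1 gap of 0.65 was equalled or exceeded by 6.43% of kept probes. It depended on the scaling: the deposited intensities of Slc27a1 overlapped, 6530 to 9023 on the dimmer arrays and 5522 to 8154 on the others. With no normalization between arrays the genotype difference of Slc27a1 was -0.14, and for Slc27a4 it turned to 0.15, both beside a median over all kept probes of 0.43.

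Slc27a4 (FATP4), a related transport protein, read 8.03, 7.76, 7.77, 8.34 and 7.47 in the transgenic mice. In the wild-type mice it read 8.26, 8.17, 8.24 and 7.93. Its single probe stood at 0.46% to 0.72% of the brightest probe on each array. The single highest value was that of transgenic mouse 163, and the 3 lowest were also transgenic. The difference was -0.28 with an interval of -0.68 to 0.12 (limma adjusted p = 0.656).

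Lpl, which encodes lipoprotein lipase itself, varied little at its brighter probe after normalization. That probe read 15.87, 15.88, 15.87, 15.82 and 15.80 in the transgenic mice and 15.83, 15.86, 15.80 and 15.85 in the wild-type mice. The groups overlapped completely, with a difference of 0.01 and an interval of -0.22 to 0.25 (limma adjusted p = 0.98). The probe stood at 79.1% to 93.5% of the brightest probe on each array, near the top of the scale, and whether its response was compressed there was not tested. The deposited intensities of the probe were 50686 to 54272 on the 3 dimmer arrays and 59012 to 64884 on the other 6. The narrow span thus holds for the normalized values alone.

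The dimmer Lpl probe read 8.73, 6.91, 8.34, 8.59 and 8.25 in the transgenic mice. It read 8.12, 7.87, 8.26 and 8.22 in the wild-type mice. Mouse 152 was far below the other 8 mice here. The difference was 0.05 with an interval of -0.69 to 0.78 (limma adjusted p = 0.978).

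Lmf1, the endoplasmic reticulum factor that lipoprotein lipase needs to mature, read 10.53, 10.28, 10.49, 10.35 and 10.40 in the transgenic mice. Its wild-type values were 10.11, 10.23, 10.31 and 9.37. The transgenic mice lay within a narrow band, and wild-type mouse 159 lay below all others. The difference was 0.41 with an interval of -0.02 to 0.84 (limma adjusted p = 0.551). Without mouse 159 it was 0.20 (adjusted p = 0.697), and without wild-type mouse 143 the groups no longer overlapped, as for 1397 probes, or 5.98%.

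Gpihbp1, the capillary protein that binds lipoprotein lipase, had a pair of probes. The brighter read 13.13, 12.27, 12.48, 12.91 and 12.90 in the transgenic mice and 12.52, 12.89, 12.28 and 12.50 in the wild-type mice. The dimmer read 12.46, 11.67, 12.27, 12.50 and 12.52 in the transgenic mice and 11.81, 11.86, 11.94 and 12.24 in the wild-type mice. At both probes mouse 152 was the lowest of all 9 mice and the groups overlapped. The differences were 0.19 (interval -0.26 to 0.64, limma adjusted p = 0.81) and 0.32 (interval -0.12 to 0.76, adjusted p = 0.639).

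Angptl4, the secreted inhibitor of lipoprotein lipase, read 15.14, 14.16, 15.01, 15.09 and 15.02 at its brighter probe in the transgenic mice. The wild-type values were 14.75, 15.11, 14.32 and 14.84. Transgenic mouse 152 and wild-type mouse 143 were again the lowest of their groups, as for Cd36. The difference was 0.13 with an interval of -0.40 to 0.65 (limma adjusted p = 0.898), and without mouse 143 it was -0.02.

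At the dimmer Angptl4 probe the transgenic mice read 7.45, 6.57, 7.84, 7.08 and 7.57. The wild-type mice read 6.49, 6.65, 6.90 and 7.04. Apart from mouse 152, all transgenic mice lay above all wild-type mice. Without that mouse the groups did not overlap at 2517 of all kept probes, or 10.8%. The probe stood at 0.29% to 0.54% of the brightest probe on each array. The difference of 0.53 (interval -0.02 to 1.09) did not pass the test (limma adjusted p = 0.542).

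Vldlr, the very low density lipoprotein receptor, had 5 tested probes. The brightest read 13.29, 12.65, 13.20, 13.26 and 13.34 in the transgenic mice and 13.49, 13.12, 12.99 and 12.77 in the wild-type mice. The highest value was that of wild-type mouse 141 and the lowest that of transgenic mouse 152. The difference was 0.05 with an interval of -0.37 to 0.48 (limma adjusted p = 0.951). The next 2 probes differed by -0.07 (adjusted p = 0.935) and -0.02 (adjusted p = 0.981).

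The 2 dimmest tested Vldlr probes varied more between mice. At the fourth the difference was -0.24 (limma adjusted p = 0.889). At the fifth the transgenic mice read 6.66, 5.68, 6.40, 5.68 and 6.16, and the wild-type mice 7.23, 7.31, 6.71 and 6.15. Wild-type mice 141, 142 and 143 lay above all transgenic mice and mouse 159 lay among them. The fifth probe differed by -0.73 with an interval of -1.38 to -0.09 (limma adjusted p = 0.488), and by -1.12 with the dimmer arrays as a term (adjusted p = 1). The sources used here do not say which transcripts of Vldlr each probe matches.

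**Figure D2:**
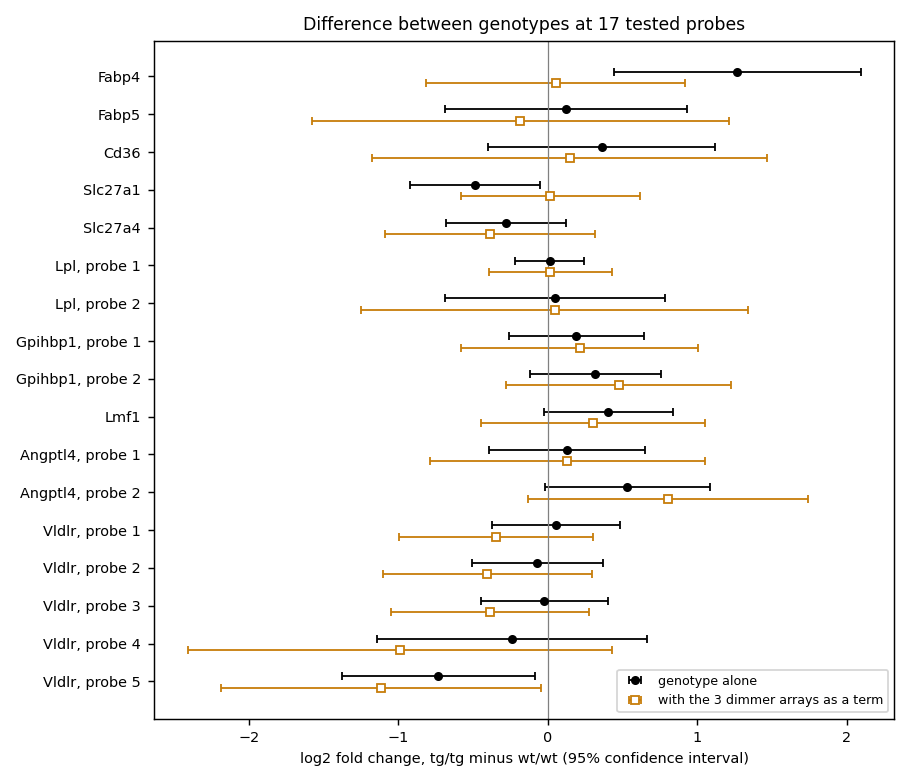
Log2 fold change, tg/tg minus wt/wt, at the 17 tested probes (horizontal axis) with 95% confidence intervals, from genotype alone (filled circles) and with the 3 dimmer arrays as a term (open squares), where probe 1 is the brightest of a gene. Fabp4 moves from 1.27 to 0.05 and Slc27a1 from -0.49 to 0.02, and the brightest Vldlr probe moves from 0.05 to -0.34.

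Probes of the same gene did not always follow the same mice. For Lpl the brighter probe was flat after normalization while the dimmer was far below the rest in mouse 152. The 3 brightest Vldlr probes moved together across mice, with mouse 152 and mouse 159 the lowest at each. For Gpihbp1 the ordering within the wild-type mice differed between probes, with mouse 142 the highest of its group at the brighter and mouse 159 at the dimmer.

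**Figure D3:**
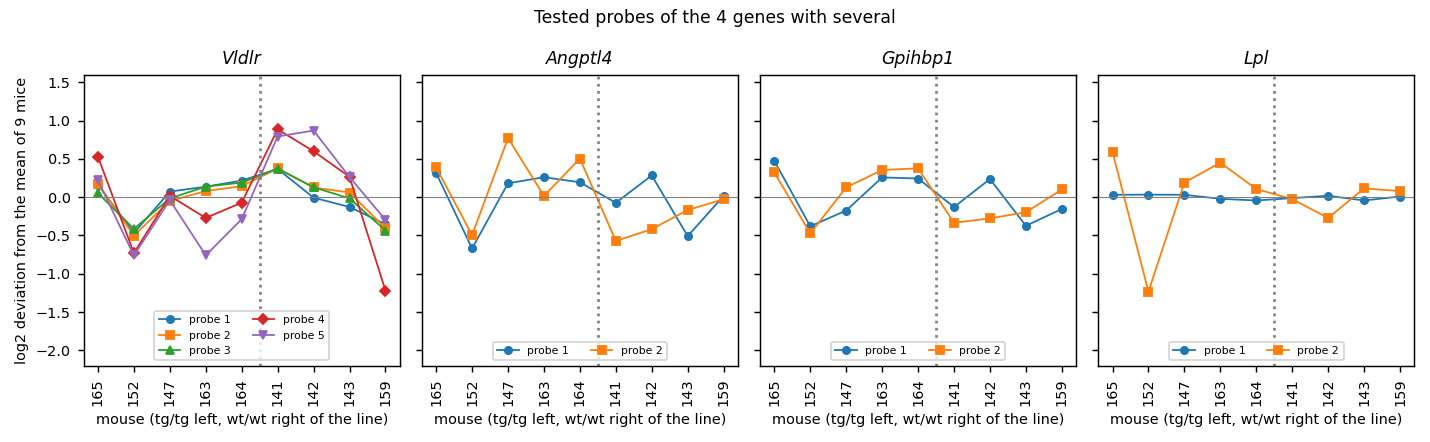
Deviation of each tested probe from its mean over 9 mice (vertical axis, log2) by mouse (horizontal axis, tg/tg to the left and wt/wt to the right of the dotted line) for the 4 genes with several tested probes. The 3 brightest Vldlr probes nearly coincide, while at the brighter Lpl probe the mice span 0.08 and at the dimmer probe mouse 152, at 6.91, lies below all others.

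Mouse 152 lay at the low end of the transgenic group for most of the genes. It was the lowest transgenic mouse for 8 of the 10 genes, against 37.2% of all kept probes. The exceptions were Slc27a4, where mouse 164 was lowest of the group, and the brighter Lpl probe. Mouse 152 was the lowest of all 9 mice for 6 genes, a count for which no share over all probes was computed. Genes measured in the same mice are not independent. For Cd36 the deviation of mouse 152 from the mean over 9 mice was -1.08, for Fabp5 -1.06, for Angptl4 -0.67 and for Slc27a1 -0.61.

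Markers of several cell types were also low in mouse 152. The mean of the 8 measured adipocyte markers was 12.10 there, against 12.63 to 12.95 in the other transgenic mice and 12.22 to 12.79 in the wild-type mice. The mean of the 9 measured of 10 endothelial markers was 11.53, against 12.31 to 12.52 and 11.63 to 12.10. The mean of the 6 measured of 8 macrophage markers was 10.71, against 11.16 to 11.79 and 11.11 to 11.46. In all 3 lists mouse 152 was thus the lowest of the 9 mice.

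Markers of epididymis and epithelium were higher in mouse 152 than in the other transgenic mice. The mean of the 9 measured of 11 epididymis markers was 10.24 in mouse 152 and 4.83 to 7.44 in the other transgenic mice. In the wild-type mice it was 10.05 to 12.99. The mean of the 3 measured of 4 epithelium markers was 11.72 in mouse 152, 8.23 to 10.35 in the other transgenic mice and 10.16 to 11.57 in the wild-type mice. Of the other 5 lists, smooth muscle was highest in mouse 152 (11.34, against 10.57 to 11.26 in the other 8 mice). Mouse 152 was lowest for erythroid (12.79 against 13.44 to 13.86), striated muscle (8.12 against 8.66 to 9.88) and sperm markers (5.20 against 5.48 to 9.34), and at 7.94 within the range for mesothelium. The part of these cell types in the members' values was not tested.

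Between genotypes the epididymis markers differed most. All 9 were lower in transgenic fat, with a median difference of -5.54. Of them 2 passed the test (0.0685% of all kept probes), and 8 had an unadjusted p under 0.05 (9.45%). The groups of 5 did not overlap (3.21%). Lcn9, Spint4 and Rnase10 were detected on 4 arrays only, the fewest the filter allows, with transgenic means of 4.64, 4.88 and 4.66. Genes high in 1 group alone pass the filter through that group, so their lack of overlap is not separate support. All 9 endothelial markers were higher, with a median of 0.27, 0 past the test and 2 at an unadjusted p under 0.05 (Tie1 and Ramp2). Of the adipocyte markers 5 were higher and 3 lower (median 0.08), and of the macrophage markers 4 were higher and 2 lower (median 0.11). All 3 epithelium markers (median -0.83), all 3 measured sperm markers (-0.23) and all 6 measured mesothelium markers (-1.002, 1 at an unadjusted p under 0.05) were lower. Of 4 measured smooth muscle markers 3 were higher (0.07), the 1 measured striated muscle marker was lower (-0.65), and both measured erythroid markers were higher (0.01). In none of the lists but epididymis did a marker pass the test.

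**Figure D4:**
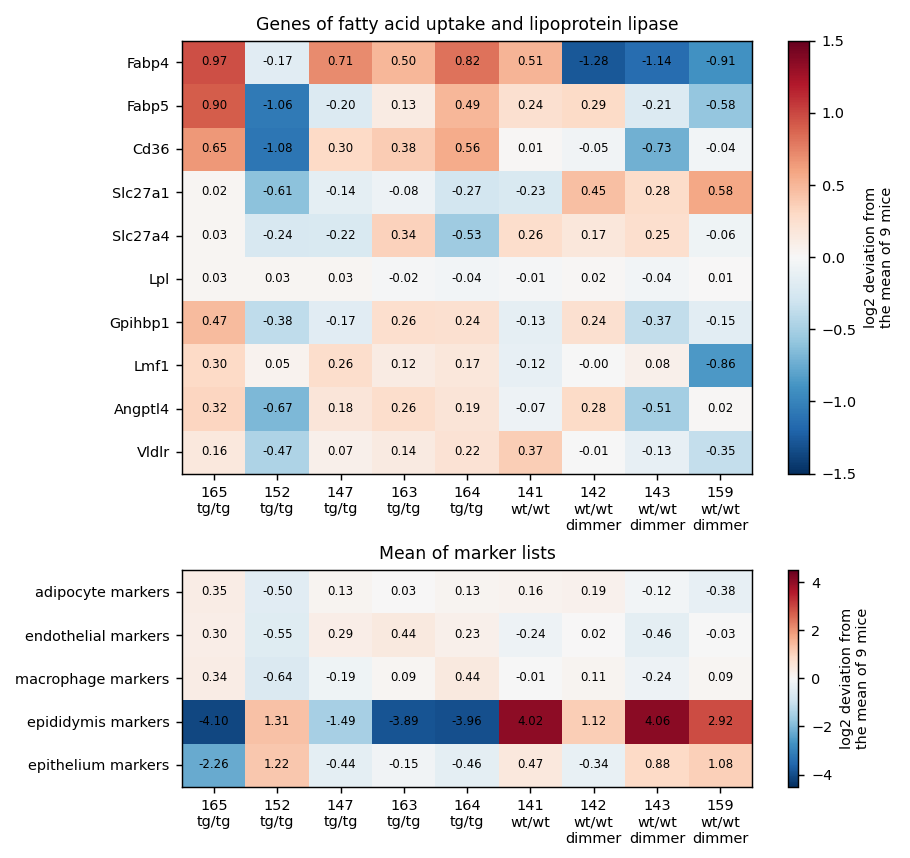
Log2 deviation from the mean of 9 mice (colour and printed value) for the brightest probe of each gene (upper panel) and for the mean of 5 marker lists (lower panel, wider colour range), with mice as columns. Mouse 152 is below the mean for all of the genes but Lpl (0.03) and Lmf1 (0.05), and the 3 dimmer arrays stand apart for Fabp4 (-1.28, -1.14 and -0.91).

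Levels of some of the genes were correlated across the 9 mice. For Fabp4 and Slc27a1 the dimmer arrays form a separate cluster, so the pairs named for them are given over the other 6 arrays. Of the 28 pairs of the other 8 genes, 21 had a positive Pearson correlation, and 22 did once each genotype was centred on its own mean. The median r was 0.20, and 0.34 without mouse 152. After Benjamini-Hochberg adjustment over all 45 pairs of the 10 genes, 5 of the 28 had an adjusted exact permutation p of r at or under 0.05 (two-sided), and 0 had one of Spearman's rho, while 8 had an unadjusted p of r under 0.05.

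Cd36 and Angptl4 had the highest r, 0.93 (exact permutation p = 0.00136, adjusted 0.0358), with a rho of 0.72 (p = 0.0369, adjusted 0.184). It was 0.94 within genotype and 0.99 over the 6 brighter arrays. Without mice 152 and 143, the mice farthest from the median of Cd36, r was 0.58, so the relation rests in large part on those mice.

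The other pairs joined Gpihbp1, Fabp5, Cd36, Angptl4 and Vldlr. Gpihbp1 and Angptl4 had an r of 0.85 (exact permutation p = 0.00159, adjusted 0.0358) and a rho of 0.88 (p = 0.00308, adjusted 0.093), with an r of 0.84 without mice 165 and 163. Fabp5 and Gpihbp1 had an r of 0.84 (exact permutation p = 0.00296, adjusted 0.0444) and a rho of 0.85 (p = 0.00607, adjusted 0.093), with an r of 0.70 without mice 152 and 165. This pair kept an r of 0.86 within genotype and of 0.88 over the 6 brighter arrays.

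Fabp5 and Vldlr had an r of 0.84 (exact permutation p = 0.00473, adjusted 0.0445) and a rho of 0.80 (p = 0.0138, adjusted 0.104), with an r of 0.81 without mice 152 and 165. Cd36 and Gpihbp1 had an r of 0.82 (exact permutation p = 0.00495, adjusted 0.0445) and a rho of 0.83 (p = 0.00827, adjusted 0.093), with an r of 0.64 without mice 152 and 143. These genes share arrays and tissue samples. The adipocyte, endothelial, macrophage, erythroid, striated muscle and sperm lists above were also lowest in mouse 152. The epididymis, epithelium, smooth muscle and mesothelium lists were not. Correlation of the marker lists with these genes was not tested. With any 1 mouse left out, between 0 and 4 pairs had an adjusted p at or under 0.05.

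Over the 6 brighter arrays, Fabp4 and Cd36 had an r of 0.97 (exact permutation p = 0.00833, unadjusted) and a rho of 0.83 (p = 0.0583), with an r of 0.82 without mouse 152. Fabp4 and Slc27a1 had an r of 0.86 (exact permutation p = 0.0458, unadjusted) and a rho of 0.49 (p = 0.356). Without mouse 152 the r of Fabp4 and Slc27a1 was 0.35, so that relation rests on mouse 152. Over all 9 mice, with the gap of the dimmer arrays, the r of this pair was -0.66. Over the 6 brighter arrays r was also high for Fabp4 with Angptl4 (0.93) and Fabp5 (0.92), and for Slc27a1 with Angptl4 (0.94) and Cd36 (0.90). It was below 0 for Fabp4 with Slc27a4 (-0.02) and Lpl (-0.25), and for Slc27a1 with Lpl (-0.10).

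The genes most alike to each of the 10 across the 9 mice were taken from the other 12170 named genes measured, by Pearson r, as a description with no test. For Cd36 they were Ehbp1l1 (r = 0.99), Ech1 (0.98), a mitochondrial and peroxisomal enzyme of fatty acid oxidation, and Grk5 (0.98). For Gpihbp1 they were Mrc1 (0.95), a macrophage receptor, Ciita (0.95) and Zbtb5 (0.94). For Fabp4 and Slc27a1 the order over 9 mice includes the gap of the dimmer arrays, so r is given over the 6 brighter arrays. The genes named by that order for Slc27a1 were Slc1a3 (0.88), Pnpla2 (0.98), the adipose triglyceride lipase, and Tmem168 (0.77), and for Fabp4 Supv3l1 (0.89), Chtf18 (0.90) and ATP6 (0.70).

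For Fabp5 the genes most alike over 9 mice were Orm1 (0.98), Scn2a (0.98) and Bcap31 (0.97), and for Angptl4 Sgcb (0.98), Kiss1r (0.97) and Rftn2 (0.97). Lmf1 was most like B3gntl1, Ebpl and Srd5a3 (each 0.98), and Vldlr most like Slc18b1 (0.96), Ticam2 (0.95) and 4931406C07Rik (0.95). Lpl, with its narrow range after normalization, was most like Sf3b1 (0.96), Dpf3 (0.92) and Pmpca (0.88). Slc27a4 was most like Smarcd1 (0.85), Caskin2 (0.84) and Kdm5c (0.82). None of these genes is one of the 10.

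The wider pathway was read from 53 further genes, of which 39 were measured. Of these, 22 were higher and 17 lower in transgenic fat, and the median difference was 0.05. The limma test was passed by 0 of them (16 of all probes, 0.0685%, did). An unadjusted p under 0.05 was reached by 2 (Slc27a3 and Acsl3), against 9.45% of all kept probes. The groups overlapped for all 39, while they did not overlap at 3.21% of all kept probes. Cav1 was the only one at which the 3 dimmer arrays lay apart from the other 6, against 3.44% of all kept probes.

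Of the fatty acid binding proteins, 4 of 8 were measured, with 3 higher and 1 lower; Pmp2, the myelin member, differed by -0.48 (limma adjusted p = 0.674) and Fabp6, the ileal bile acid binding member, by 0.11 (0.89). Of the fatty acid transport proteins, 3 of 4 were measured, with 2 higher and 1 lower. Slc27a3 differed by 0.54 (limma adjusted p = 0.48) and Slc27a2, the very long chain acyl-CoA synthetase, by -0.57 (adjusted p = 0.739). All 4 measured of 5 acyl-CoA synthetases, which trap fatty acids in the cell as acyl-CoA, were lower, with a median of -0.38. Among them Acsl3 differed by -0.44 (limma adjusted p = 0.513) and Acsl6 by -0.48 (adjusted p = 0.649). Acsl6 was detected on only 6 arrays. Acsl5, with the brightest probe of the 4, differed by -0.04 (limma adjusted p = 0.943), and Acsl1 had no probe by that symbol.

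Of the partners of CD36, 5 of 6 were measured, with 3 higher and 2 lower. Cav1, the coat protein of caveolae, differed by 0.24 (limma adjusted p = 0.626) and Fyn, a Src-family kinase, by 0.16 (0.915). Of the regulators of lipoprotein lipase, 10 of 12 were measured, with 5 higher and 5 lower. Sel1l, which lipoprotein lipase needs to leave the endoplasmic reticulum, differed by 0.32 (limma adjusted p = 0.609), and Apoc2, its activator, by -0.48 (0.652). The related lipases were measured at 0 of 3 genes.

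Of the lipoprotein receptors and their partners, 6 of 8 were measured, with 3 higher and 3 lower. Lrp2 (megalin) differed by -0.37 (limma adjusted p = 0.831) and Lrp1 by 0.17 (0.84). All 7 transcription factors of the pathway were measured, with 6 higher and 1 lower and a median of 0.18. Tcf15, which with Meox2 drives fatty acid uptake genes in endothelium, differed by 0.55 (limma adjusted p = 0.603), Ppard by -0.21 (0.647), and Pparg, the main regulator of adipocyte genes, by 0.15 (0.88).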

How the data were processed

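RNA of 9 mice was measured on Illumina bead arrays, 1 per mouse. The authors deposited linear intensities as a series matrix, and a table called non-normalized with intensities and, per the file headers, Illumina detection p-values. The sources used here do not give the scanner software or any scaling. Ordered by the series matrix intensities the detection p rose at 0 places between unequal intensities on any array, and ordered by the other table at 578 to 1250 places on 8 arrays, so the series matrix was used. Background was corrected by normexp from the detection p-values (offset 16), followed by quantile normalization and log2. The 23354 probes detected at p under 0.05 on 4 or more arrays (21927 were left out) were fitted for genotype with limma 3.58.1 in R 4.3.3, with Benjamini-Hochberg adjustment over all of them and a threshold of 0.05. Probe genes came from GEO's platform annotation, with symbols updated through a RefSeq gene table (10396 probes were unnamed), and a gene's brightest kept probe stands for it.

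The 10 genes and all lists were chosen with earlier results of these data known. Named genes are the 10, the 3 genes most alike to each, and the 2 genes of each pathway list with the lowest p. Pparg, Acsl5, Acsl1 and single markers were named in addition, after the values were seen. Alternatives changed 1 step at a time, and the dimmer arrays as a term was added after the data were seen. The fit was tested on simulated data. Arrays give no read depth, and their number limits the precision. The labels give separate mouse numbers, so replicates are separate animals.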

Additional observations from a re-analysis of the deposited data

Results flagged for a closer look

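In 5 of the 34 groups of values looked at (17 probes in each genotype), the lowest mouse stood far from the rest of its group, measured as its gap to the nearest mouse over the group's range. Chance gives about 1 in 20 such groups, and probes measured in the same mice are not independent. Transgenic mouse 152 was the low mouse in 4 of them: Cd36 read 7.23 there and 8.60 in the next mouse, the dimmer Lpl probe 6.91 and 8.25, the brighter Angptl4 probe 14.16 and 15.01, and the brightest Vldlr probe 12.65 and 13.20. Wild-type mouse 143 was the low mouse for Cd36, at 7.58 against 8.26 in the next. The part of tissue make-up or array signal in these values was not tested.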

How the results depend on the processing

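None of the 10 genes passed the test under 19 of the 20 alternatives. The count of probes called, 16 in the fit reported, was 1332 with no normalization between arrays, 9 with no filter on dim probes, 1 with probes detected on all 9 arrays, 353 with array weights (lowest for mice 159 and 152), 9 with the dimmer arrays as a term, and 9 to 50 with 1 mouse left out, highest without mouse 152 and next, at 36, without mouse 142. With no normalization between arrays 1 gene passed (Fabp4, 1.69), the groups of 1 gene did not overlap (Lmf1, beside 16.1% of all kept probes), the median difference was 0.50, and 16 of the 45 pairs were correlated. The count of genes whose groups did not overlap was 0 to 2 with 1 mouse left out: 2 without mouse 152 (10.8% of kept probes), 2 without 141 (5.76%) and 1 without 143 (5.98%). The 5 correlated pairs became 0 in the table called non-normalized, 3 with no background correction, 2 with the mean over the probes of a gene, and 0 to 4 with 1 mouse left out: 0 without mouse 165, 152, 163, 164 or 143, 1 without 142 or 159, and 3 without 147.

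Some differences changed sign. Lpl was -0.0037 in the table called non-normalized and -0.22 with scaling on the 75th percentile. Vldlr was -0.039 with that scaling, -0.013 with array weights, -0.20 with the mean over its probes and -0.34 with the dimmer arrays as a term. That term gave -0.18 for Fabp5 and 0.016 for Slc27a1 (reported -0.49), and no normalization gave 0.15 for Slc27a4 (reported -0.28). With 1 mouse left out, Fabp5 spanned -0.091 to 0.40, Angptl4 -0.019 to 0.31 and Vldlr -0.053 to 0.19. The causes were not tested. Over all alternatives the adjusted p of Fabp4 ranged from 0.0468 to 1, and its difference from 0.05 to 1.69. No paired analysis was possible because the labels give no pairing between transgenic and wild-type mice. With 4 and 5 mice, the interval of Cd36, from -0.40 to 1.12, held differences of either sign.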
